A study of Mus musculus with 12 samples.

Results

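Pdk4, Pdk2, Ucp3, Ucp2, Mlycd, Plin5, Plin2 and Angptl4 were followed as 8 fasting-type target genes of the peroxisome proliferator-activated receptors (PPARs) in hind limb muscle of mice lacking αB-crystallin and HspB2. They were chosen by gene symbol, as were the lists used below, with earlier results of these data known. All 8 were found among 22923 distinct symbols in the expression files, each listed once. PPARs are nuclear receptors that bind fatty acids and, with the retinoid X receptor as partner, activate genes of fatty acid use. In skeletal muscle this programme is known from fasting, endurance exercise and fat feeding, when fatty acids replace glucose as the fuel. The products of these genes act at different steps of that exchange, from the entry of pyruvate into the citric acid cycle to the storage of fat in droplets and the uptake of fat from blood.

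The study asked how these small heat shock proteins and diet shape the muscle transcriptome in obesity caused by diet. Muscle of the proximal hind leg was taken from 12 male FVB mice aged 22 weeks. Knockout (KO) mice lacked Cryab, which encodes αB-crystallin, and Hspb2 in the whole body, and wild-type (WT) littermates, titled as flox, were the controls. Mice of either genotype had normal chow or, from young adult age, a high fat diet, which gave 4 groups of 3 mice, all of the same strain, sex and age. The WT on chow thus carried neither the deletion nor the diet, and the muscle was a mixture of fibres and the cells between them. Groups were taken from the sample titles because the genotype label of 6 samples conflicted with the title. Cryab measured 0.845 to 1.75 FPKM (fragments scaled to transcript length and to the size of the library) in the 6 libraries titled KO, against 412 to 837 FPKM in the 6 titled WT. Hspb2 measured 0.353 to 1.92 FPKM in the libraries titled KO and 81.5 to 103 FPKM in those titled WT.

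Depth in reads is unknown, since the files hold no counts. The steps between low values put the libraries within 1.36 times of one another in relative depth. That search covered only a limited range of ratios and took the commonest ratio between low values as the ratio of depth. Lymphocyte marker genes summed to 67.8 to 77.6 FPKM in replicate 2 of WT on chow and replicates 1 and 3 of KO on chow. In the other 9 libraries they summed to at most 6.03 FPKM. Several results, though not all, are therefore also given without those 3 libraries, which leaves a single KO library on chow. Of the muscle markers, Acta1 was listed at 0 in 2 libraries and Myh4 in all 12, while Ckm lay between 13276 and 25896 FPKM. Slow fibre markers summed to between 190.4 FPKM, in replicate 1 of WT on high fat, and 2595 FPKM, in replicate 2 of the same group. Because the muscle was sequenced in bulk, fewer cells of a type and less RNA per cell cannot be told apart.

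All 8 genes were above 1 FPKM in every library. Pdk2 had the highest level, with a mean of 329.7 ± 66.2 FPKM (SD over 12 libraries), above 98.8% of detected genes. Pdk4 followed at 217 ± 100 FPKM, Ucp3 at 66.6 ± 15.6, Mlycd at 56.6 ± 12.7, Plin2 at 39.2 ± 13.8, Ucp2 at 23.9 ± 13.3, Angptl4 at 19.6 ± 10.7 and Plin5 at 13.6 ± 6.41 FPKM, the last above 77.9% of detected genes. These levels are scaled to transcript length. Neighbours in this order overlapped over the 12 libraries, except that the lowest Pdk4 value, 96.5 FPKM, lay just above the highest Ucp3 value, 93.8 FPKM. The range within a gene was widest for Angptl4, whose highest library was 15.2 times its lowest, and narrowest for Pdk2, at 2.0 times.

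All 8 are protein-coding genes in the GENCODE M21 annotation (mouse build GRCm38). Pdk4 lies on the minus strand at chr6:5483351-5496309, Pdk2 on the minus strand at chr11:95026258-95041354, Mlycd on the plus strand at chr8:119394878-119411102 and Plin2 on the minus strand at chr4:86648386-86670060. Angptl4 and Plin5 are both on the minus strand of chromosome 17, at chr17:33773750-33781830 and chr17:56111601-56117596. Ucp3 and Ucp2 are neighbours on the plus strand, at chr7:100472990-100486432 and chr7:100493337-100502020, with 6904 bases between their annotated spans. Exons of Ucp2 overlap exons of Dnajb13, and reads of these genes cannot be told apart where strand is not used, but Dnajb13 measured at most 0.197 FPKM.

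PPARs bind DNA at pairs of the nuclear receptor core motif AGGTCA set 1 base apart. The 250 bases before the annotated start were read from RefSeq on GRCm38.p6 for 7 of the 8 genes, with 9 starts in all. The core motif, searched on both strands, was found in 3 genes, at 2 places in Ucp3 (149 and 44 bases before the start), at 1 place in Plin5 (170 bases before the upstream of its 2 starts) and at 1 place in Plin2 (218 bases before the start, on the opposite strand). Of 32851 mouse promoter windows of the same length, 14.0% held it. The full pair, 2 copies of AGGTCA with any 1 base between them, held by 0.0335% of windows, and TCAAGGTCA, the extended motif of oestrogen-related receptors, held by 0.387%, overlap the core motif and were in none of the 9. A match describes letters only and is not a binding site. The windows with a match are printed 5′ to 3′ with the matched letters in capitals, and that of Pdk4, with none, is shown because Pdk4 had the largest diet difference in WT of the 8 genes.
Ucp3, chr7:100472741-100472990, plus strand: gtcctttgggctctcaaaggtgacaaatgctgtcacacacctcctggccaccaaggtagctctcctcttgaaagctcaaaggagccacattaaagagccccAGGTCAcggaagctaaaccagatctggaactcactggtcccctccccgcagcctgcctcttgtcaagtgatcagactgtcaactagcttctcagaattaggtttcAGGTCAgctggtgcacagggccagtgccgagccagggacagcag
Plin5, chr17:56117549-56117798, minus strand: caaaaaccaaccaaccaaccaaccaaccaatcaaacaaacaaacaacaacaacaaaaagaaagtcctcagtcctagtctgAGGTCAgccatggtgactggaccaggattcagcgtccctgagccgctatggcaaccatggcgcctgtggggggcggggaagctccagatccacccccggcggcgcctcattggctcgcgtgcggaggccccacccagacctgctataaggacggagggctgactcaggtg
Plin2, chr4:86670060-86670309, minus strand: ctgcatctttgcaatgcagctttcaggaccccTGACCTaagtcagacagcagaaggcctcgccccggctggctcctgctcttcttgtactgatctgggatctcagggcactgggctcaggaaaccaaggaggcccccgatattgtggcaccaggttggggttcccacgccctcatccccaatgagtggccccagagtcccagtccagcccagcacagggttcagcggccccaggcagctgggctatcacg
Pdk4, chr6:5496279-5496528, minus strand: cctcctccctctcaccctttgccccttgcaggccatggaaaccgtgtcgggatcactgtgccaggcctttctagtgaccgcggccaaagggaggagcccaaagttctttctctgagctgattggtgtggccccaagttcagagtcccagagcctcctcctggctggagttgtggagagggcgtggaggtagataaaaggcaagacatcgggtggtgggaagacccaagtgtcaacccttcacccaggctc

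None of the 8 genes passed an adjusted p of 0.05 in any of the 7 comparisons (limma on log2(FPKM + 1), Benjamini-Hochberg over 11945 genes), so every difference is given as a value and not as a change. Few genes passed at all. The share of all tested genes past this threshold was 0.1% for high fat against chow in WT, 0% in KO, 0.0586% for KO against WT on chow, 0.109% on high fat, 0% for the interaction of diet and genotype, 0.0586% for diet over both genotypes and 0.862% for genotype over both diets. Cryab and Hspb2 passed in every comparison of genotype. At an unadjusted p under 0.05, 4 of the 8 genes were higher on high fat in WT, where 4.42% of all genes were, and 1 was higher on high fat in KO, where 6.56% of all genes were. On chow 4 were higher in KO than in WT, against 6.73% of all genes, and on high fat 3 were higher and 2 lower, against 9.79% and 6.45%. The lowest adjusted p among the 8 in any comparison was 0.0593.

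**Figure D1:**
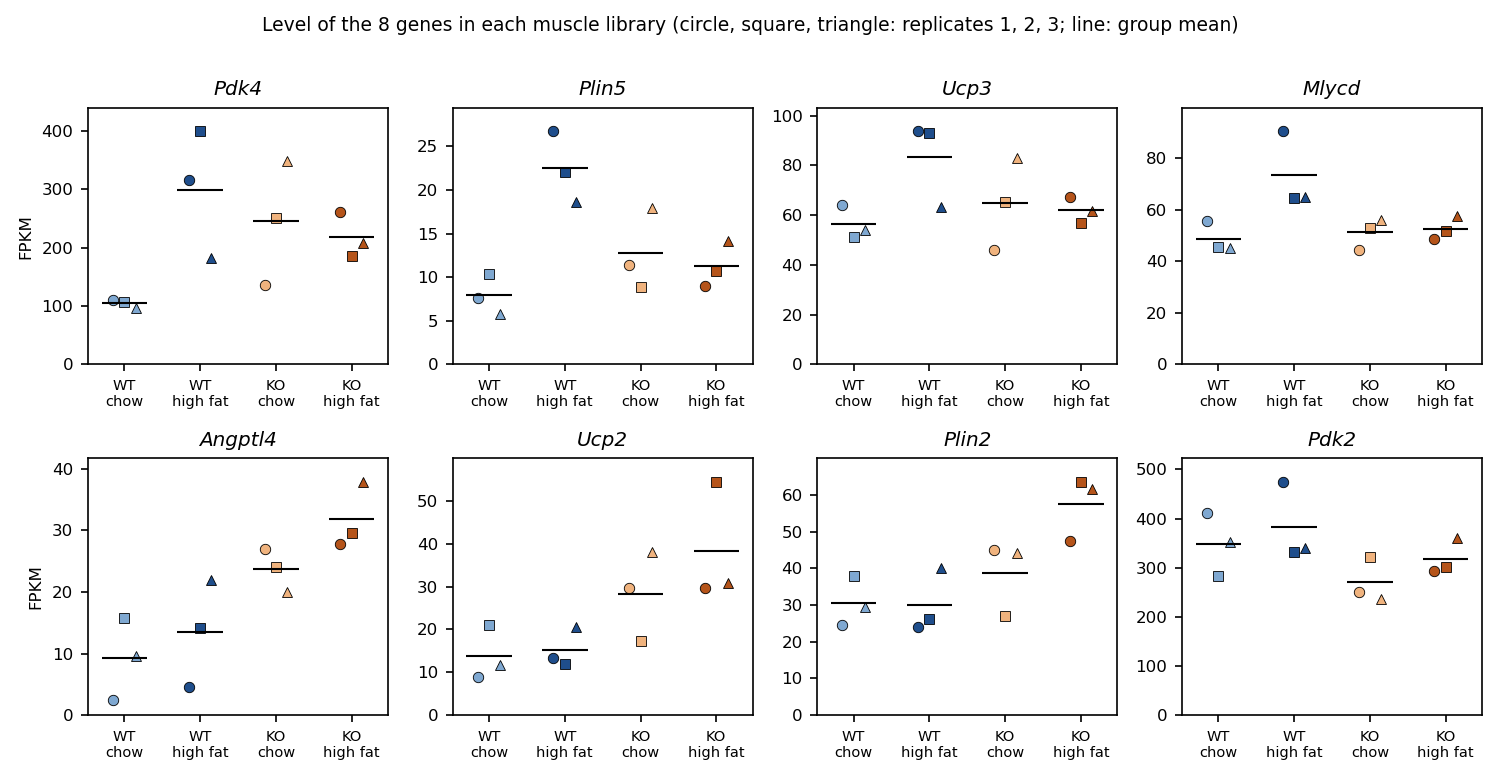
FPKM of each of the 8 genes in the 12 libraries, with 1 panel per gene, its vertical axis starting at 0, and a line at each group mean. Pdk4, Plin5, Ucp3 and Mlycd had their highest group mean in WT on high fat, and Angptl4, Ucp2 and Plin2 in KO on high fat, where Plin2 lay between 47.5 and 63.6 FPKM.

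The plot of levels by library showed 2 patterns among the group means. Pdk4, Plin5, Ucp3 and Mlycd stood highest in WT on high fat, while the KO groups on the 2 diets overlapped. The muscle fibre markers Mb and Myh1 also had their highest mean there, with values given beside the marker sums. Angptl4, Ucp2 and Plin2 stood higher in KO than in WT on both diets, and Pdk2 had its lowest mean in KO on chow.

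Pdk4 encodes a pyruvate dehydrogenase kinase, which switches off the complex that feeds pyruvate into the citric acid cycle and so spares glucose. In order of replicate, Pdk4 measured 111, 106 and 96.5 FPKM in WT on chow and 316, 399 and 183 FPKM in WT on high fat. In KO it measured 136, 251 and 348 FPKM on chow and 261, 186 and 208 FPKM on high fat. The 3 WT libraries on chow were the lowest of all 12, so neither WT on high fat nor KO on chow overlapped them. On high fat Pdk4 in WT was 2.71 times as high as on chow (log2 difference 1.44, SE 0.33, limma adjusted p = 0.137). In KO the ratio of high fat to chow was 0.945, with a 95% interval of -0.81 to 0.65 for the log2 difference. On chow the KO level was 2.18 times that of WT (log2 difference 1.12, SE 0.33, limma adjusted p = 0.27), and these 2 differences share the WT libraries on chow. On high fat KO and WT overlapped, at a log2 difference of -0.40. The interaction, the diet difference in KO minus that in WT, was -1.52 on the log2 scale (95% interval -2.55 to -0.49, limma adjusted p = 0.618).

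Pdk2, the kinase of the same complex that most tissues express, measured 411, 284 and 352 FPKM in WT on chow and 475, 332 and 339 FPKM in WT on high fat. The KO values were 251, 321 and 237 FPKM on chow and 293, 301 and 361 FPKM on high fat. The groups overlapped in each comparison, and its log2 differences between the diets were 0.13 in WT and 0.24 in KO. Without the 3 libraries with lymphocyte markers they were -0.01 in WT and -0.02 in KO, with a single KO library left on chow. Over both diets Pdk2 was lower in KO, at 0.808 times the WT level (log2 difference -0.31, SE 0.13, limma adjusted p = 0.161). Pdk4 and Pdk2 thus had different patterns over the groups, with a Pearson's r of -0.02 between them over the 12 libraries (Spearman's rho -0.08, permutation p = 0.94 and 0.799, adjusted 0.974 and 0.933, r 0.02 without the 2 farthest libraries).

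Ucp3 encodes an uncoupling protein of the mitochondrial inner membrane, found mainly in muscle. It measured 64.3, 51.1 and 53.9 FPKM in WT on chow and 93.8, 93.0 and 63.3 FPKM in WT on high fat. Its KO values were 46.0, 65.3 and 83.0 FPKM on chow and 67.2, 57.0 and 61.9 FPKM on high fat. Replicate 3 of WT on high fat, the library with the lowest Pdk4 of that group, lay among the WT libraries on chow. Ucp3 on high fat was 1.45 times the chow level in WT (log2 difference 0.54, SE 0.21, limma adjusted p = 0.472) and 0.983 times in KO. KO on chow spanned the values of WT on chow, and neither comparison of genotype was at an unadjusted p under 0.05.

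Mlycd encodes malonyl-CoA decarboxylase, which removes the inhibitor of fatty acid entry into mitochondria. It measured 55.5, 45.7 and 45.3 FPKM in WT on chow and 90.6, 64.7 and 65.1 FPKM in WT on high fat. KO libraries gave 44.4, 53.2 and 56.3 FPKM on chow and 48.7, 51.8 and 57.8 FPKM on high fat. WT on high fat stood above all 9 other libraries. Its level there was 1.48 times that of WT on chow (log2 difference 0.57, SE 0.15, limma adjusted p = 0.199), while in KO the 2 diets differed by 0.04 on the log2 scale, with a 95% interval of -0.28 to 0.37. On high fat KO was lower than WT, at 0.729 times its level (log2 difference -0.46, SE 0.15, limma adjusted p = 0.162), or -0.30 without replicate 1 of WT on high fat. The interaction was -0.52 (95% interval -0.98 to -0.07, limma adjusted p = 0.742).

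Plin5 encodes perilipin 5, a coat protein of lipid droplets in oxidative tissue that lies where droplets touch mitochondria. It measured 7.66, 10.3 and 5.80 FPKM in WT on chow and 26.7, 22.1 and 18.6 FPKM in WT on high fat. In KO it measured 11.4, 8.87 and 17.9 FPKM on chow and 8.99, 10.7 and 14.2 FPKM on high fat. As for Mlycd, the 3 WT libraries on high fat were the highest of all 12. Their level was 2.66 times that of WT on chow (log2 difference 1.41, SE 0.26, 95% interval 0.85 to 1.98, limma adjusted p = 0.0885), the lowest adjusted p of any of the 8 genes for diet. Without the 3 libraries with lymphocyte markers that log2 difference was 1.60 (limma adjusted p = 0.054). In KO the ratio of high fat to chow was 0.914, with a 95% interval of -0.69 to 0.43 for the log2 difference. That difference moved from -0.13 to 0.29 without those 3 libraries, which leaves a single KO library on chow. On high fat KO was lower than WT, at 0.520 times its level (log2 difference -0.94, SE 0.26, limma adjusted p = 0.113), whereas on chow it was 1.51 times as high with overlapping groups (log2 difference 0.60, or 0.34 without replicate 3 of KO on chow). The interaction of diet and genotype was -1.54 (95% interval -2.34 to -0.74, limma adjusted p = 0.465).

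**Figure D2:**
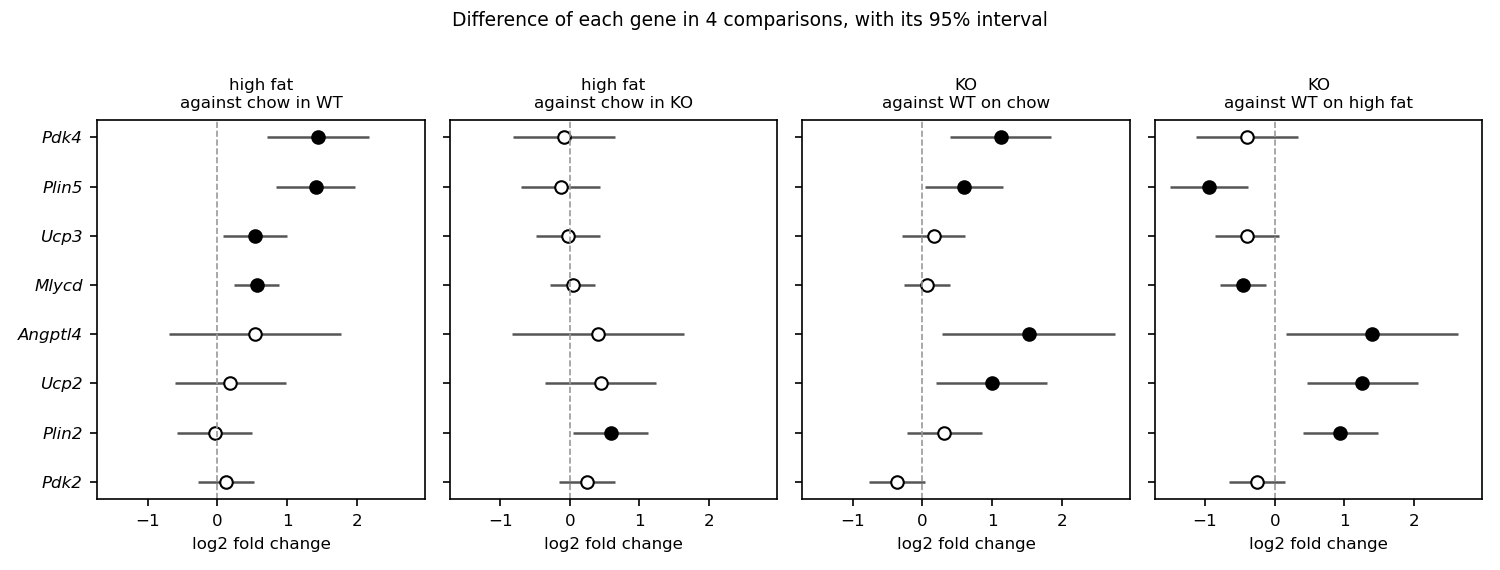
Log2 fold change of each of the 8 genes (horizontal axis, difference of mean log2(FPKM + 1)) in 4 comparisons, with the 95% interval from limma as a line and filled points where the unadjusted p was under 0.05. The WT diet panel holds 4 filled points on the right, from 0.54 to 1.44, and the panel for genotype on high fat holds filled points on both sides of 0, from -0.94 to 1.39.

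The plot of differences sets the 4 simple comparisons side by side. The diet difference in WT and that in KO share no library, nor do the comparisons of genotype on chow and on high fat, but each diet comparison shares libraries with each genotype comparison. Median log2 differences of the 8 genes were 0.54 for diet in WT, 0.14 for diet in KO, 0.46 for genotype on chow and -0.32 for genotype on high fat, while the medians of all tested genes lay between -0.03 and 0.03. Groups did not overlap for 3 of the 8 genes in WT (Pdk4, Plin5 and Mlycd, all higher on high fat), against 6.2% of all genes in that direction, and for 2 in KO (Plin2 and Angptl4), against 10.7%. For KO against WT they did not overlap for 2 higher genes on chow (Pdk4 and Angptl4), against 8.15% of all genes, and on high fat for 3 higher (Ucp2, Angptl4 and Plin2) and 2 lower (Plin5 and Mlycd), against 13% and 10.7%. For the interaction, 3 of the 8 (Pdk4, Plin5 and Mlycd) were at an unadjusted p under 0.05 with a smaller diet difference in KO, against 2.7% of all genes in that direction. Without the 3 libraries with lymphocyte markers the interaction was -1.67 for Pdk4, -1.31 for Plin5 and -0.54 for Mlycd, with a single KO library left on chow that is assumed to vary like the other groups. Over both genotypes these 3 genes were higher on high fat, by 0.68, 0.64 and 0.31 on the log2 scale, at limma adjusted p values of 0.275, 0.20 and 0.269. At an unadjusted p under 0.05 they were the 3 of 8 in that direction, against 7.96% of all genes. Without the 3 libraries with lymphocyte markers the diet difference over both genotypes moved from 0.31 to 0.79 for Ucp2 and from 0.27 to 0.59 for Plin2.

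Plin2 encodes perilipin 2, the coat protein of small lipid droplets in most cells. It measured 24.5, 38.0 and 29.4 FPKM in WT on chow and 23.9, 26.3 and 40.1 FPKM in WT on high fat. In KO the values were 45, 27.0 and 44.2 FPKM on chow and 47.5, 63.6 and 61.7 FPKM on high fat. KO on high fat stood above all 9 other libraries. There Plin2 was 1.92 times the WT level (log2 difference 0.94, SE 0.24, limma adjusted p = 0.105) and 1.5 times the level of KO on chow (log2 difference 0.58, SE 0.24, limma adjusted p = 0.435), 2 differences that share the KO libraries on high fat. Without the 3 libraries with lymphocyte markers the diet difference in KO was 1.05, and 0.35 without replicate 2 of KO on chow alone, and the difference of genotype on chow moved from 0.32 to 0.01. In WT the 2 diets overlapped, at a log2 difference of -0.04.

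Ucp2, the uncoupling protein found in many tissues and abundant in immune cells, measured 8.81, 21 and 11.6 FPKM in WT on chow and 13.3, 12 and 20.6 FPKM in WT on high fat. The KO values were 29.6, 17.2 and 38.0 FPKM on chow and 29.8, 54.5 and 30.9 FPKM on high fat. Replicate 2 of KO on chow was the only KO library within the range of WT. On high fat KO was 2.39 times WT (log2 difference 1.25, SE 0.36, limma adjusted p = 0.127), with no overlap. On chow the ratio was 2.0 (log2 difference 1.00, SE 0.36, limma adjusted p = 0.279). Without the 3 libraries with lymphocyte markers the difference on chow was 0.71 and that of diet in KO moved from 0.44 to 1.06, at a limma adjusted p of 1.00.

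Angptl4 encodes a secreted inhibitor of lipoprotein lipase, the enzyme that frees fatty acids from blood lipoproteins. It measured 2.50, 15.7 and 9.59 FPKM in WT on chow and 4.49, 14.1 and 21.9 FPKM in WT on high fat. KO libraries gave 27.0, 24.1 and 20.0 FPKM on chow and 27.9, 29.6 and 37.9 FPKM on high fat. All KO libraries exceeded those of WT on the same diet, and the WT values spread over a wide range. KO was 2.88 times WT on chow (log2 difference 1.53, SE 0.56, 95% interval 0.29 to 2.76, limma adjusted p = 0.281) and 2.63 times WT on high fat (log2 difference 1.39, 95% interval 0.16 to 2.63, limma adjusted p = 0.251). KO libraries on high fat also all exceeded those on chow, at a log2 difference of 0.41 with an interval of -0.83 to 1.64. With 1 library left out the log2 difference of genotype on chow ranged from 0.88, without replicate 1 of WT on chow, to 2.01, and that on high fat from 0.81, without replicate 1 of WT on high fat, to 1.84.

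Over both diets, Angptl4 was 2.75 times as high in KO as in WT (log2 difference 1.46, SE 0.40, limma adjusted p = 0.0727), Ucp2 2.18 times (1.13, SE 0.26, adjusted p = 0.0593) and Plin2 1.54 times (0.63, SE 0.17, adjusted p = 0.0733). These 3 and Pdk2, which was lower, were the genes of the 8 at an unadjusted p under 0.05, against 13.1% of all genes in the higher and 13.4% in the lower direction. The 3 lay close to the threshold, and leaving out 1 library decided it. Without replicate 2 of WT on chow Ucp2 and Angptl4 passed (log2 differences 1.29 and 1.70, limma adjusted p = 0.0395 and 0.0462). Without replicate 3 of WT on high fat all 3 passed (Ucp2 1.24, Angptl4 1.68 and Plin2 0.74, limma adjusted p = 0.0405, 0.0451 and 0.042). Without replicate 2 of KO on chow Ucp2 and Plin2 passed (1.28 and 0.74, limma adjusted p = 0.0341 and 0.0362). Without all 3 libraries with lymphocyte markers the values were 0.98 for Ucp2, 1.72 for Angptl4 and 0.47 for Plin2, at limma adjusted p values of 0.338 to 0.401.

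White adipocyte and macrophage markers had higher means in KO, as those 3 genes had. White adipocyte markers, led by Fabp4, Cfd and Adipoq, summed to 619 to 2229 FPKM in WT on chow, 608 to 1782 in WT on high fat, 2137 to 4629 in KO on chow and 1862 to 2334 FPKM in KO on high fat. All 8 of these markers had a higher mean in KO over both diets, 7 at an unadjusted p under 0.05 and 0 past the adjusted threshold by limma. Of all genes, 13.1% were higher and 13.4% lower in that comparison at that unadjusted p. None of the 8 markers was listed at 0 in any library, though Lipe is also expressed by muscle fibres and Fabp4 by endothelial cells. Replicate 1 of WT on chow and replicate 1 of WT on high fat, with the lowest Angptl4 and Plin2 of their groups, also had the lowest adipocyte sums, 619 and 608 FPKM. Macrophage markers, led by Lyz2, C1qa and Csf1r, summed to 124 to 256 FPKM in WT and 199 to 421 FPKM in KO, all 8 had a higher mean in KO at an unadjusted p under 0.05, and none was listed at 0. Emr1 passed (log2 difference 0.89, limma adjusted p = 0.0418), but not without replicate 1 or 3 of WT on chow, replicate 1 or 3 of KO on chow or replicate 1 or 2 of KO on high fat, where the adjusted p reached 0.126, nor without the 3 libraries with lymphocyte markers (0.338). Replicate 2 of KO on high fat had both the highest macrophage sum and the highest Ucp2. Lymphocyte markers, led by Cd79a, Cd79b and Ms4a1, were high in the 3 libraries named above, among them the highest Ucp2, Plin2 and Plin5 value of WT on chow and the highest of KO on chow. The part of these cells in the values of Angptl4, Ucp2, Plin2 and Plin5 was not tested. Endothelial markers, led by Pecam1, Cdh5 and Tie1, summed to between 88.0 and 121 FPKM in the 12 libraries, with a higher mean in KO over both diets for 1 of 6, a median log2 difference of -0.13 and 2 lower at an unadjusted p under 0.05. Of the brown adipocyte markers, Ucp1 was listed at 0 in 3 libraries and under 1 FPKM in 9, while Cox8b, Cidea and Ppargc1a had means of 1313, 12.7 and 7.07 FPKM, and muscle also expresses Cox8b and Ppargc1a. Of the 4 tested, 2 had a higher mean in KO over both diets, 1 was higher and 1 lower at that unadjusted p.

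**Figure D3:**
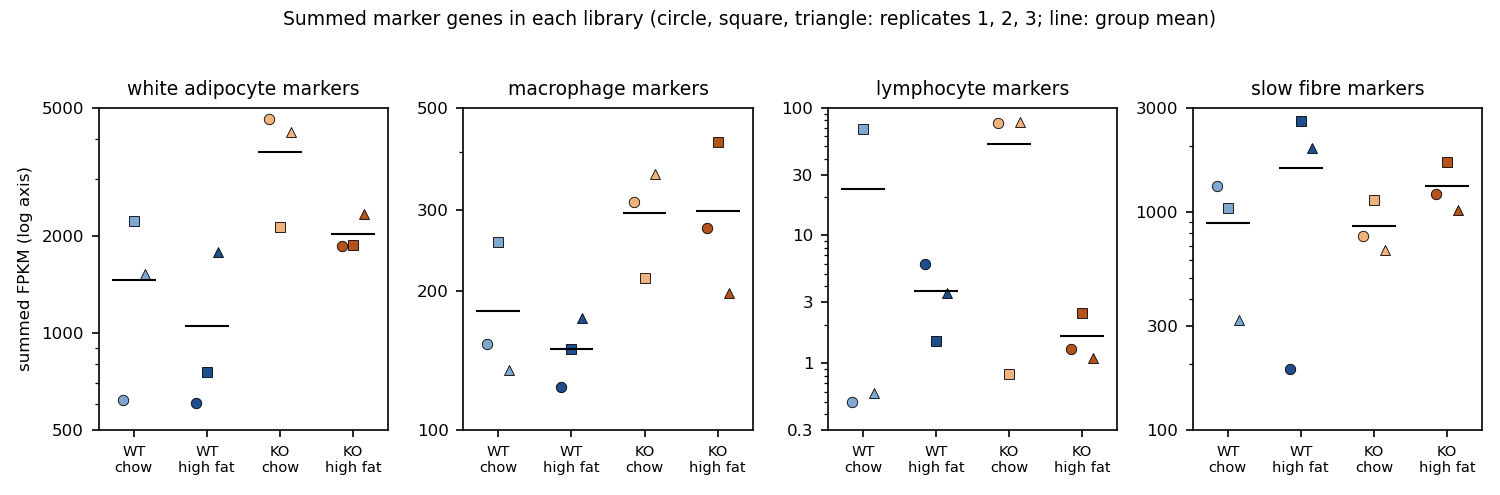
Summed FPKM of 4 marker lists in each library on log axes, with a line at each group mean. Adipocyte and macrophage sums were higher on average in the KO groups, lymphocyte sums stood at 67.8 to 77.6 FPKM in 3 libraries, and slow fibre sums were lowest in replicate 1 of WT on high fat.

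The plot of marker sums shows which libraries these were. Slow fibre markers were led by Myl2, Myl3 and Tnnc1. On high fat 7 of 8 had a higher mean in WT (median log2 difference 0.32), against 46.4% of all genes. In KO all 8 did (0.56), against 56.0% of all genes, but 0 at an unadjusted p under 0.05. The SE ran from 0.32 for Casq2 to 1.08 for Myh7 in either genotype. Casq2, the calcium-binding protein of the slow fibre sarcoplasmic reticulum, was the 1 at an unadjusted p under 0.05 for diet in WT, at 0.86 with no overlap (limma adjusted p = 0.429). Of the 10 muscle fibre markers tested, 5 had a higher mean on high fat in WT, against 46.4% of all genes, with a median of 0.02. Mb, the oxygen-binding myoglobin, and Myh1, a fast myosin heavy chain, also had their highest group mean in WT on high fat. On high fat in WT both were higher by 0.73 with no overlap (limma adjusted p = 0.361 and 0.377), in KO the diets overlapped, and KO was lower than WT on high fat by 0.92 and 0.95 with no overlap (limma adjusted p = 0.109 and 0.105). Replicates 1 and 2 of WT on high fat had the lowest and the highest slow fibre sum of all libraries, 190.4 and 2595 FPKM. In that order Pdk4 measured 316 and 399 FPKM there, Plin5 26.7 and 22.1, Ucp3 93.8 and 93.0 and Mlycd 90.6 and 64.7 FPKM. The part of fibre type in the values of Pdk4, Plin5, Ucp3 and Mlycd was not tested.

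The 8 genes were also compared in pairs over the 12 libraries, by Pearson's r of log2(FPKM + 1) with 100000 permutations. Of 28 pairs, 8 had a Benjamini-Hochberg adjusted p under 0.05, and all 8 were positive. They lay within 2 sets with no gene in common. In the first set, Pdk4 and Ucp3 had an r of 0.84 (Spearman's rho 0.85, permutation p = 0.00078 and 0.00097, adjusted 0.00571 and 0.00905), which was 0.79 without the 2 libraries farthest from the median. In the second set, Ucp2 and Plin2 had an r of 0.92 (rho 0.88, permutation p = 0.00011 and 0.0003, adjusted 0.00308 and 0.0042), and 0.88 without 2 libraries. Angptl4 completed the second set, with an r of 0.79 to Ucp2 (rho 0.82, permutation p = 0.00125 and 0.00192, adjusted 0.00583 and 0.0134, r 0.73 without 2 libraries) and of 0.79 to Plin2 (rho 0.90, permutation p = 0.00102 and 0.00019, adjusted 0.00571 and 0.0042, r 0.75 without 2 libraries).

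**Figure D4:**
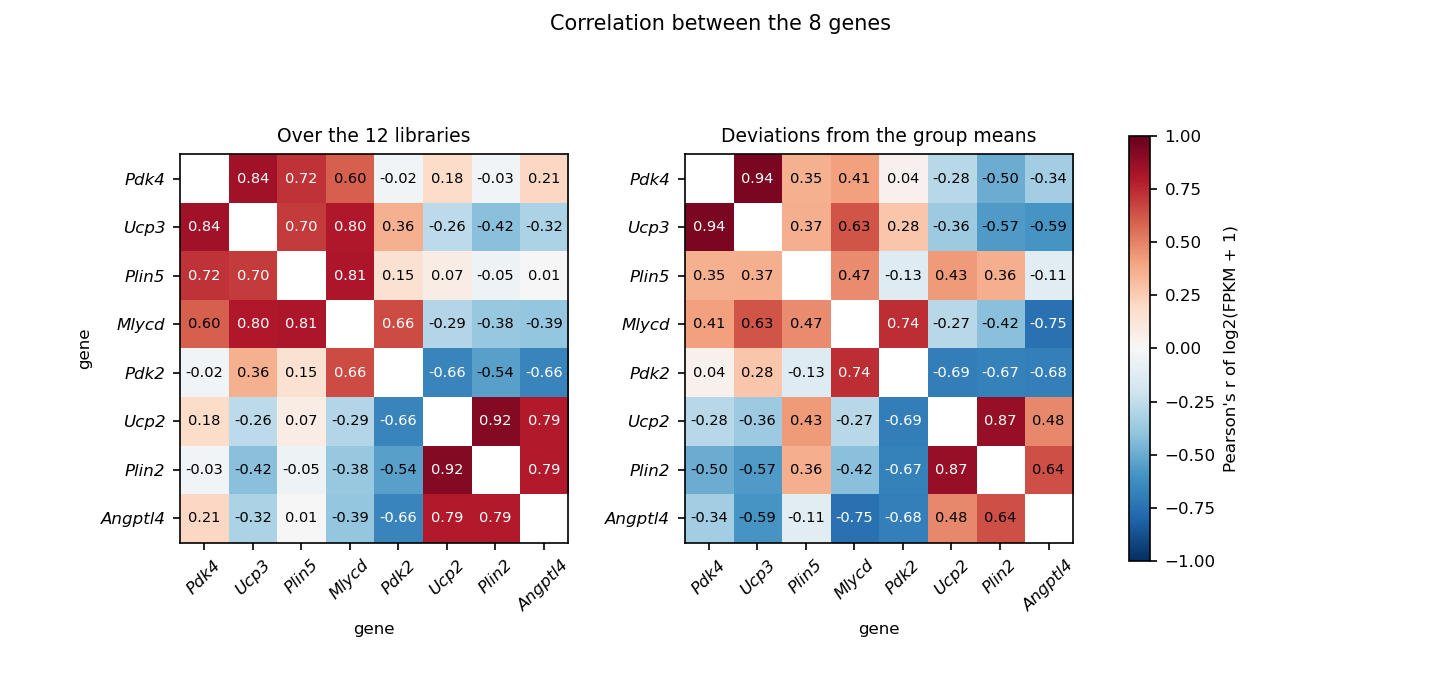
Pearson's r of log2(FPKM + 1) for each pair of the 8 genes, over the 12 libraries (left) and for deviations from the 4 group means (right), from blue at -1 to red at 1. Pdk4 and Ucp3 had an r of 0.84 on the left and 0.94 on the right, and Ucp2 and Plin2 0.92 and 0.87.

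Plin5 and Mlycd belonged to the first set. Plin5 had an r of 0.81 with Mlycd (rho 0.72, permutation p = 0.00091 and 0.0109, adjusted 0.00571 and 0.0507, r 0.64 without 2 libraries), and Ucp3 one of 0.80 with Mlycd (rho 0.73, permutation p = 0.00089 and 0.00992, adjusted 0.00571 and 0.0507, r 0.64). Pdk4 and Plin5 had an r of 0.72 (rho 0.64, permutation p = 0.0101 and 0.0309, adjusted 0.0404 and 0.124, r 0.55). Ucp3 and Plin5 had an r of 0.70 (rho 0.46, permutation p = 0.0122 and 0.137, adjusted 0.0426 and 0.299), which was 0.37 without 2 libraries and so rested on them. Because the 4 groups differ in their means, r was also taken within groups, as deviations from the group means, shown on the right of the plot of correlations. Pdk4 and Ucp3 then had an r of 0.94 and Ucp2 and Plin2 of 0.87, whereas r was 0.35 for Pdk4 and Plin5 and 0.47 for Plin5 and Mlycd. In the second set r was 0.48 for Ucp2 and Angptl4 and 0.64 for Angptl4 and Plin2. Within groups 4 pairs had an adjusted p under 0.05 by permutation, 3 of them positive. That permutation moved the deviations freely between libraries although the group means had been removed. Its p-values are therefore likely too low, and the count is given as a description. After Pdk4 with Ucp3 and Ucp2 with Plin2, the largest r by size were -0.75 for Angptl4 and Mlycd and 0.74 for Pdk2 and Mlycd. Neither of these pairs lay within a set named above.

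The genes most like each of the 8 over the 12 libraries were taken as the 3 with the highest r among 11463 genes with a mean of at least 1 FPKM, as a description without a test. For Pdk4 they were Zfyve27 (r 0.87), Esrrg (0.85), which encodes an oestrogen-related receptor, and Ucp3 (0.84). Esrrg was also among the 3 nearest to Ucp3 (0.88), with Nceh1 (0.88), a cholesterol ester hydrolase, and Gbe1 (0.85), the glycogen branching enzyme. Plin5 lay nearest to Slc25a34 (0.96), a mitochondrial carrier, Hsdl2 (0.96) and Retsat (0.95). Mlycd lay nearest to Acadvl (0.96), which starts the oxidation of very long chain fatty acids, Pde4c (0.96) and Cnnm4 (0.96). Angptl4 was most like Apol6 (0.94), Hp (0.94), which encodes haptoglobin, and G6pdx (0.93), and Plin2 most like Bcap31 (0.98), Degs1 (0.98) and Cldn15 (0.96). For Ucp2 the list was headed by Sdcbp (0.99) and held the lysosomal enzyme Gusb (0.96) and a row that joins 6 symbols of the Pira and Lilra6 family. Pdk2 was most like Apoo (0.99), Polr2c (0.98) and Cdk16 (0.98).

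Of 30 other known PPAR target genes, listed by symbol with earlier results of these data known, 26 were tested. The counts below therefore describe this list and are no independent test of it. In WT on high fat 18 of the 26 were higher at an unadjusted p under 0.05, against 4.42% of all genes, and 0 lower. A difference above 0 was found for 23, against 46.4% of all genes, and the median log2 difference was 0.64. Decr1, which takes part in the oxidation of unsaturated fatty acids, passed with a log2 difference of 0.87 (SE 0.11, limma adjusted p = 0.0183), at 53.2 ± 2.23 FPKM on chow and 98.9 ± 15.8 FPKM on high fat (SD, n = 3). Its adjusted p by limma was 0.107, 0.0649 and 0.1 without replicate 1, 2 or 3 of WT on chow, and it was lost without the 3 libraries with lymphocyte markers (0.095). Over both genotypes 17 of the 26 were higher on high fat at an unadjusted p under 0.05, against 7.96% of all genes, and 1 lower. The median was 0.35, and 1 was called higher. Acaa2, a thiolase of mitochondrial fatty acid oxidation, was higher by 0.89 and Slc25a34 by 1.37, both at a limma adjusted p of 0.0802. In KO 2 of the 26 were higher on high fat at an unadjusted p under 0.05, against 6.56% of all genes, and 1 lower. A difference above 0 was found for 16, against 56.0% of all genes, and the median was 0.09. Without the 3 libraries with lymphocyte markers, with a single KO library left on chow, the median in KO was 0.20, against 0.01 for all tested genes. For KO against WT on high fat 15 were lower and 1 higher, against 6.45% and 9.79% of all genes. For the interaction 17 were lower, against 2.7% of all genes, with a median of -0.55. Without the 3 libraries with lymphocyte markers 3 were lower for the interaction, with a median of -0.46. For KO against WT on chow 8 were higher, against 6.73% of all genes, and 0 lower, with a median of 0.20. Without those libraries, where a single KO library was left on chow, the median was 0.10.

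**Figure D5:**
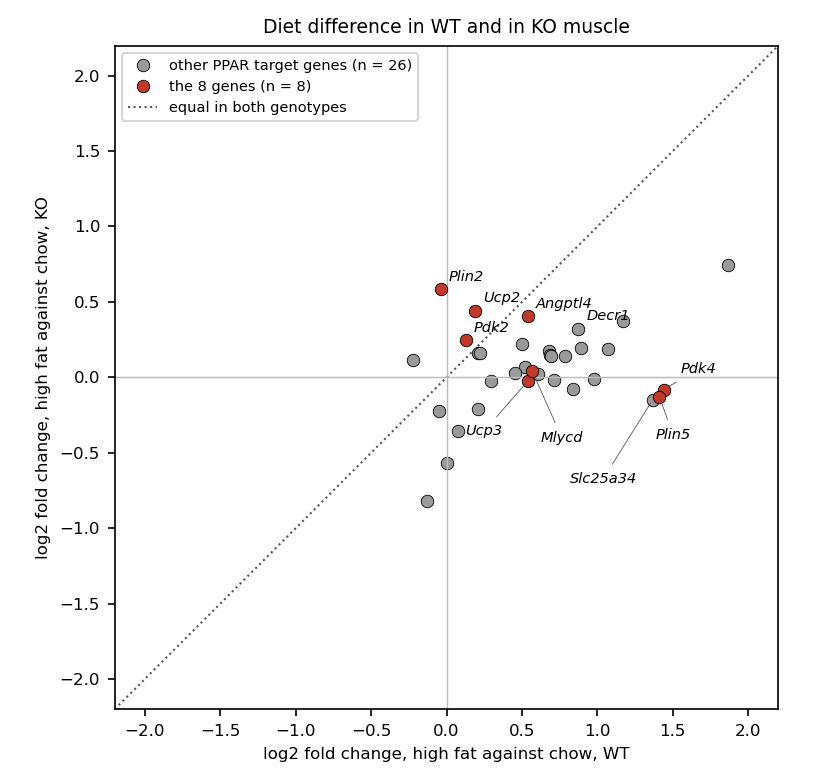
Log2 fold change of high fat against chow in WT (horizontal axis) and in KO (vertical axis) for the 8 genes and 26 other PPAR target genes, with a dotted line where both are equal. Pdk4 and Plin5 lie at the right near 0 on the vertical axis, with 1.44 and 1.41 in WT and -0.08 and -0.13 in KO, and Plin2 lies above the line, at -0.04 and 0.58.

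The plot of the diet difference in both genotypes puts Pdk4, Plin5, Ucp3 and Mlycd on the same side of the line of equality as most of the other targets, and Plin2, Ucp2 and Pdk2 on the opposite side. None of these interactions passed the adjusted threshold (limma), at which 0 of 11945 genes were called, with 746 at an unadjusted p under 0.05.

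The PPARs themselves and the proteins they work with formed another list. Of 15 PPARs, partners and coregulators tested, 0 passed in any comparison by limma. For diet in WT, where 4.42% of all genes were higher at an unadjusted p under 0.05, 1 was higher and 0 lower. That was Ppargc1b, a coactivator, higher by 0.50 (SE 0.11, limma adjusted p = 0.137), from 0.953 ± 0.067 to 1.77 ± 0.38 FPKM. Ppara was lower on high fat in KO, by 0.57 on the log2 scale with no overlap (limma adjusted p = 0.273). Pparg, the PPAR of adipocytes, was higher in KO over both diets by 0.89 (limma adjusted p = 0.0964), where adipocyte markers were higher too.

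Other genes that act on the enzymes around Pdk4 and Mlycd were read from a pair of lists. Of the pyruvate dehydrogenase list 10 of 12 were found and tested, and 0 passed by limma in any comparison. Pdp1, the phosphatase that opposes the kinases, was higher on high fat over both genotypes by 0.45 (limma adjusted p = 0.13), and Pdk1 and Dld were lower in KO over both diets by 0.27 and 0.25 (limma adjusted p = 0.106 and 0.134), as Pdk2 was. Pdk1 passed at a limma adjusted p of 0.0414 without replicate 2 of KO on chow. At an unadjusted p under 0.05, 5 of these 10 genes were lower in KO over both diets and 0 higher, against 13.4% and 13.1% of all genes. Of the malonyl-CoA list, 8 genes were tested and 0 passed by limma. Acaca, which makes malonyl-CoA, Fasn, which uses it, and Acly were lower on high fat over both genotypes, at log2 differences of -1.43, -2.10 and -0.95 (limma adjusted p = 0.0752, 0.16 and 0.194), where Mlycd was higher by 0.31. Acaca passed without replicate 1 of WT on chow (limma adjusted p = 0.0445) or replicate 2 of KO on chow (0.0437). These 3 enzymes of fat synthesis are also abundant in adipocytes, and adipocyte markers were lower on high fat in 7 of 8 genes over both genotypes.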

How the data were processed

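RNA of proximal hind leg muscle from 12 mice was sequenced by the authors as paired ends on an Illumina HiSeq2000 after TruSeq library preparation. The submitters' processing notes name TopHat2 2.0.8b, Cuffdiff 2.1.1 and mm10, the same build as GRCm38. The authors deposited 1 FPKM value per row and library, with 23179 rows and replicates not pooled. The unit was read from the values and those tools. Samples were grouped by title.

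Values were taken to log2(FPKM + 1), with rows of repeated symbols reduced to the highest mean. The 11945 genes with at least 1 FPKM in at least 3 libraries were fitted with limma 3.58.1 (R 4.3.3), with a variance trend, 4 group means and 8 residual degrees of freedom, two-sided, Benjamini-Hochberg adjusted at 0.05. A fold change on this scale understates that of low genes. The interaction is the diet difference in KO minus that in WT. The methods call the samples independent. The limma p-values set a difference against the spread between libraries within groups, with that spread moderated over all genes. Correlations and their permutations used NumPy 2.4.6, with ranks from SciPy 1.17.1.

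The members and lists were chosen with earlier results of these data known. The genes named were the 8 members, Cryab and Hspb2, in each PPAR, pyruvate dehydrogenase, malonyl-CoA, fasting and lipid droplet list those past the threshold in any comparison, filled up to 3 by lowest unadjusted p, the 3 highest marker genes of a list, and the 3 nearest genes of each member. Myh4, Ucp1, Mb, Myh1, Casq2, Emr1 and Dnajb13 were named in addition, after their values were seen. Promoters were 250 bases of RefSeq. Alternatives were a pseudocount of 0.1, no filter, grouping by the genotype label, a replicate block, fits of 2 groups alone, median-of-ratios size factors, quantile normalization, robust moderation, summed repeated rows and each library left out. Leaving out all 3 libraries with lymphocyte markers was added after seeing the data. Deviations of same-numbered libraries had mean correlations from -0.50, for genotype on chow, to 0.17, for diet in WT, where libraries of other numbers had -0.08. Read depth was not given in the sources used here, and the number of mice limits the precision.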

Additional observations from a re-analysis of the deposited data

How the results depend on the processing

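No member passed the adjusted threshold in any of the 7 comparisons without the filter on low values, with a pseudocount of 0.1, only the groups compared, size factors, quantile normalization, robust moderation or summed repeated rows, nor without the 3 libraries with lymphocyte markers, where genotype on high fat, which holds none of them, was not refitted. With each library left out in turn the count of members called stayed at 0, except for KO against WT over both diets, where it ranged from 0 to 3. With the replicate number as a block the count was 0 in all 7 comparisons. The labels do not say that same-numbered mice were handled together, and not every same-numbered pair deviated together, so the numbers were not taken to pair the samples. Pairs of members with an adjusted p under 0.05 numbered 8. For deviations from the group means, where the permutation p is likely too low, there were 4, not all of them among those 8. With a library left out and no group means removed, the pairs numbered from 4 (without replicate 1 of WT on high fat) to 11 (without replicate 3 of KO on high fat).

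Grouping by the genotype label, under which libraries without Cryab count as WT, gave the opposite sign for diet in WT in Ucp3 (-0.0011) and Mlycd (-0.0073), for genotype on high fat in Ucp2 (-1.13), Angptl4 (-0.85), Plin2 (-0.62), Plin5 (0.95) and Mlycd (0.44), for the interaction in Plin5 (0.89), Mlycd (0.49) and Klf15 (0.17), and for genotype over both diets in Pdk2 (0.090), Ucp2 (-0.37), Plin2 (-0.28), Pdk1 (0.068), Dld (0.061), Cdkn1a (-0.46) and Emr1 (-0.45), all on the log2 scale. No other setting turned the direction of a difference checked, which for members meant those at an unadjusted p under 0.05. Smaller differences were not checked in every setting. Some turned without the 3 libraries with lymphocyte markers, among them that of diet in KO in Plin5 and Pdk2.

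Counts of all genes called moved more than those of the members. The 12 genes called for diet in WT became 7 with the block, 3 with only the groups compared and 0 by label. The 0 for diet in KO became 6 without a filter, 15 with only the groups compared and 9 with quantile normalization, and the 0 for the interaction became 1 without a filter. The 7 for genotype on chow became 4 with the block or with only the groups compared, and 0 by label. The 13 on high fat became 24 without a filter, 26 with quantile normalization, 5 with the block, 8 with only the groups compared and 0 by label. The 7 for diet over both genotypes became 1 with the block and 0 by label, and the 103 for genotype over both diets became 42, 200, 40 and 0 without a filter, with quantile normalization, with the block and by label. Without the 3 libraries with lymphocyte markers 1 was called for diet in WT, 1 for diet over both genotypes and 11 for genotype over both diets. With 1 library left out the counts ranged from 1, without replicate 1 or 2 of WT on chow, to 32, without replicate 2 of WT on high fat, for diet in WT, and from 0 to 4, without replicate 2 of KO on chow, for diet in KO. For genotype they ranged from 4 to 14 on chow, the latter without replicate 3 of WT on chow, from 4, without replicate 2 of KO on high fat, to 82, without replicate 3 of WT on high fat, on high fat, and from 10, without replicate 1 of WT on chow, to 1200, without replicate 2 of KO on chow, over both diets. For diet over both genotypes they ranged from 1 to 18, the latter without replicate 1 of WT on high fat. Of the list genes past the threshold, Cdkn1a, Dgat1 and Emr1 were lost without the filter (adjusted p by limma 0.0531, 0.0789 and 0.0711), and Decr1 in WT, Dgat1 and Emr1 with the block (0.0592, 0.0749 and 0.0581). Decr1 was also lost with only the groups compared (0.138) and by label (0.633).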

Other observations

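Among 16 genes of the fasting and glucocorticoid response, 8 were higher in KO than in WT on chow at an unadjusted p under 0.05, against 6.73% of all genes, and 0 lower. Their median log2 difference was 0.33. On high fat 2 were higher and 2 lower, against 9.79% and 6.45% of all genes. Cdkn1a, a cell cycle inhibitor that rises in fasted muscle, was the 1 gene of the list past the adjusted threshold. It was higher in KO over both diets by 1.48 on the log2 scale (SE 0.24, limma adjusted p = 0.0245), with all 6 KO libraries above all 6 WT libraries. It did not pass without replicate 1 of WT on chow, replicate 1 of WT on high fat, replicate 3 of KO on chow or replicate 1 or 2 of KO on high fat (adjusted p up to 0.0882), nor without the 3 libraries with lymphocyte markers (0.223). Its level was 9.25 ± 2.74 FPKM in WT on chow, 11 ± 3.0 in WT on high fat, 27.0 ± 11.1 in KO on chow and 35.1 ± 14.2 FPKM in KO on high fat (SD, n = 3). The clock gene Per1 and the fasting-induced transcription factor Klf15 had their highest group mean in WT on high fat, as Pdk4 had. Unlike Pdk4, Klf15 in KO on high fat (14.2 to 15.5 FPKM) lay within the range of WT on chow (13.3 to 16.1 FPKM). Per1 was higher on high fat in WT by 0.86 (limma adjusted p = 0.111, or 0.0359 with the replicate number as a block) and lower by 0.04 in KO, and Klf15 was higher by 0.41 in WT (limma adjusted p = 0.189) and lower by 0.20 in KO, with an interaction of -0.60 (limma adjusted p = 0.503).

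Of 12 partners of the perilipins on lipid droplets, 8 were higher and 1 lower in KO over both diets at an unadjusted p under 0.05, against 13.1% and 13.4% of all genes. Dgat1, the enzyme of the last step of triglyceride synthesis, passed at 0.73 (SE 0.14, limma adjusted p = 0.0455), but leaving out 1 library undid this for all libraries except replicate 2 of either genotype on chow and replicate 3 of WT on high fat (adjusted p up to 0.126), as did leaving out the 3 libraries with lymphocyte markers (0.257). Pnpla2, the triglyceride lipase that Plin5 binds, was higher in KO than in WT on chow by 0.68 with no overlap (limma adjusted p = 0.263) and differed by 0.06 on high fat. Hilpda, which inhibits that lipase, was higher on high fat by 0.46 in either genotype (limma adjusted p = 0.352 in WT and 0.42 in KO), unlike Plin5. Adipocytes express several of these genes, and Plin1, Cidec and Lipe were both on this list and among the white adipocyte markers. Adipocyte markers were higher in KO, but the part of adipocytes in these values was not tested.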
